A study of Mus musculus with 4 samples.

Results

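The cells described here are otic epithelial cells of the mouse embryo at E10.5 that carried transcripts of Rorb and few transcripts of Otx1 or Otx2. They numbered 135 of 5278 otic-gate cells, and of 14985 filtered cells in all. A cell passed the filter if 1000 or more genes were detected in it and no more than 10% of its UMIs were mitochondrial. UMIs (unique molecular identifiers) count captured transcripts. A cell was in the otic gate with at least 1 UMI of Epcam, an epithelial adhesion gene, at least 3 UMIs summed over the otic genes Hmx2, Hmx3, Lmx1a and Oc90, 0 UMIs of the surface ectoderm gene Trp63 and at most 2 UMIs of the neuronal gene Neurod1. Within the gate, at least 2 UMIs of Rorb and at most 1 UMI of Otx1 and Otx2 together made a cell a Rorb cell. The cells were thus chosen by measured counts: Rorb, Otx1, Otx2 and the gate genes by the rule, and Gdf6, Otol1, Fam107a and Itih5 as the markers that went with it. The levels of all these genes in Rorb cells are therefore given as descriptions without a test.

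The 4 single-cell libraries came from Swiss-Webster embryos staged at 34 to 36 somites. The 2 control libraries carried Pax2-Cre and the Rosa26-GFPf/+ reporter. The 2 cKO libraries carried the same alleles together with Tbx2f/f and Tbx3f/f, so Cre and the GFP reporter were common to both genotypes. Cre under Pax2 regulatory sequences acts in the otic placode and in some neighbouring tissue, and the dissected vesicle with its cochleovestibular ganglion came with adjoining neural tube and pharyngeal cells, from which living GFP-positive cells were sorted. Vesicles of 3 control and of 2 cKO embryos were pooled per the labels. Which embryos went into which library is not stated, so replicate libraries may share embryos and p-values measure only the spread between these libraries.

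The libraries held 106769747 to 128205192 UMIs. Library pairs shared 2 to 8 cell barcodes, 0 of them with a Rorb cell. Floxed genes in 3′ libraries check the genotype only where the counted end is deleted, which the labels do not state. In otic-gate cells Tbx3 stood at 72.1 and 68.2 CPM in the control libraries and 24.4 and 19 CPM in the cKO libraries, and Tbx2 at 90.5 and 98.5 CPM in the control libraries and 68.2 and 66.8 CPM in the cKO libraries. Both genes were lower in both cKO libraries, in the direction of their labels.

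Rorb encodes an orphan nuclear receptor of the ROR family, which binds the half-site AGGTCA preceded by an AT-rich stretch. At E10.5 the otic vesicle is a closed epithelial ball that is being divided into dorsal, ventral, anterior and posterior territories. Its dorsal wall forms the endolymphatic duct and the canals under WNT signals from the hindbrain, its ventral wall forms the saccule and cochlea under hedgehog signals, and Otx1 and Otx2 mark the ventral and lateral wall. Of the markers, Gdf6 encodes a ligand of the BMP family, Otol1 a collagen-like protein of the otolith matrix, Itih5 a heavy chain of the inter-alpha-trypsin inhibitor family that binds hyaluronan, and Fam107a an actin-binding protein.

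The upstream windows of 3 genes are shown. Rorb defines the cells and Otol1 is an otolith gene among the markers. Rxrg, a retinoid receptor partner, is among the genes most above double-low cells, a group described below. Each is the 250 bases before an annotated start in RefSeq (GRCm38.p6), 5′ to 3′ on the gene's strand, and capitals mark AGGTCA. Rorb has 2 starts, at chr19:19111197-19111446 and chr19:19001118-19001367 on the minus strand. Otol1 lies at chr3:70007363-70007612 and Rxrg has 2 windows, at chr1:167598112-167598361 and chr1:167618015-167618264, all on the plus strand.

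Rorb, first start: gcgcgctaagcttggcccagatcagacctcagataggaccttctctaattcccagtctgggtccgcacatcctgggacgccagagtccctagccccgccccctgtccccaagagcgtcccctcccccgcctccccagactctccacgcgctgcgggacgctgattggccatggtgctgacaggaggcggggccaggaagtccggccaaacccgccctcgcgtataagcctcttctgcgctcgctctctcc
Rorb, second start: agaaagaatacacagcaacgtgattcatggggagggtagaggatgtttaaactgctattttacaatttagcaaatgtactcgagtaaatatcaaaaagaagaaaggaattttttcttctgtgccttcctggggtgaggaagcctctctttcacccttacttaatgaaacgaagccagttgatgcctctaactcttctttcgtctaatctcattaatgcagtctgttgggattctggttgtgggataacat
Otol1: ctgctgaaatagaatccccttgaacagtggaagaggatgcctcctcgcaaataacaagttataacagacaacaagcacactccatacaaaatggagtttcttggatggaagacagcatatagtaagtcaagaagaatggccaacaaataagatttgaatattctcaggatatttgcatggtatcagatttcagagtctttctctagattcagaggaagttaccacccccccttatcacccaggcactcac
Rxrg, first start: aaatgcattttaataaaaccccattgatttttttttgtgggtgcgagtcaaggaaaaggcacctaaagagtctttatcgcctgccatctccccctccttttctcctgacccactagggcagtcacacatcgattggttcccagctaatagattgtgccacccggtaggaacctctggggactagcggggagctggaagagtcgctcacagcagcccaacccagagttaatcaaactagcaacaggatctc
Rxrg, second start: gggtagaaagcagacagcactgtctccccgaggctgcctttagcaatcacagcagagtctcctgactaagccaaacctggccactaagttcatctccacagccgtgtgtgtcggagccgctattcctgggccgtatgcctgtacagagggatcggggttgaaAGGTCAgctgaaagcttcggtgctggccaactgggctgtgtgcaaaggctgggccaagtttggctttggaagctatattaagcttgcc

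The first Rorb window had a GC content of 66.0% and the second 39.2%. Windows were found for 4 of the 5 marker genes, 7 windows in all, and none held AGGTCA or AGGTGT, the core of a T-box half-site, on either strand. Over all 32851 windows of the same length, 14.0% held AGGTCA and 11.8% held AGGTGT. Among the 10 genes most above double-low cells, described below, 5 had a window and 3 of their 7 windows held AGGTCA, in Rxrg and Slc39a8, while 0 held AGGTGT. The first Rxrg window holds no match, and in the second the match begins 88 bases upstream of the start. Among the 10 genes most below those cells, 8 had 9 windows, with 0 matches of either motif. A match of these letters is not a binding site, and its absence here says only that these windows lack it.

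Rorb cells were almost confined to the control libraries. They were 60 of 1685 otic-gate cells in control 1, or 3.56% (exact binomial 95% interval 2.73 to 4.56), and 73 of 1509 in control 2, or 4.84% (3.81 to 6.04). In cKO 1 they were 1 of 771, or 0.130% (0.00328 to 0.721), and in cKO 2 they were 1 of 1313, or 0.0762% (0.00193 to 0.424). Both control shares lay above both cKO intervals. The mean share was 4.20% ± 0.903 (SD, n = 2) in control and 0.103% ± 0.0379 (SD, n = 2) in cKO, a difference of -4.10 percentage points. An exact two-sided permutation test gave p = 0.333, the smallest value that 2 against 2 libraries allow. These intervals cover counting error only.

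The otic gate itself held 41.9% and 40.2% of the control cells and 23.1% and 34.0% of the cKO cells. As shares of all cells passing the filter, Rorb cells were 1.49%, 1.94%, 0.0299% and 0.0259% in the order control 1, control 2, cKO 1, cKO 2. Depth ran the other way, since the median otic-gate cell held 32569 and 31000.0 UMIs in control and 39009 and 36363 in cKO. Cells were also thinned to 10000 UMIs before the rule was applied, and the 162, 217, 417 and 257 filtered cells under that depth were left out. The control libraries then kept 10 and 11 Rorb cells and the cKO libraries 0 and 0. The other otic groups were counted the same way. Otx-positive cells, with at least 2 Otx UMIs and at most 1 of Rorb, numbered 276, 282, 21 and 28, which is 16.4%, 18.7%, 2.72% and 2.13% of the gate. Cells with both at least 2 Rorb and at least 2 Otx UMIs, called double-positive here, numbered 39, 39, 0 and 0. The remaining double-low cells numbered 1310, 1115, 749 and 1284.

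The 2 cKO Rorb cells sat at the threshold, with 2 Rorb UMIs each. The cell of cKO 1 held 1 UMI of Itih5 and none of Gdf6, Otol1 or Fam107a. The cell of cKO 2 held 1 UMI of Fam107a and none of the other markers. In the control libraries the Rorb cells reached 37 and 25 Rorb UMIs, with a median of 4 in both. A sum over 1 cell gives no test of genotype within the Rorb cells, and none was made.

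The background was read in cells that should lack Rorb. Cells bearing leukocyte markers, 47, 42, 56 and 54 per library with medians of 40596, 38358.5, 51386.5 and 37492 UMIs, had 0 cells with 2 or more Rorb UMIs in any library, which allows shares of up to 7.55%, 8.41%, 6.38% and 6.60% (exact binomial), and 1 cell, in control 2, with a single Rorb UMI. Gdf6 was seen in 0 of these cells. Itih5 was seen in 2, 1, 0 and 2 of them, Otol1 in 1, 1, 0 and 0, and Fam107a in 0, 0, 0 and 1.

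The otic requirement of the rule set how many Rorb-bearing cells were counted. Over all filtered cells, 177, 236, 22 and 5 had at least 2 Rorb and at most 1 Otx UMIs. Of those outside the gate, 100, 123, 2 and 1 failed only for holding fewer than 3 UMIs of the otic genes. In the control libraries these cells had medians of 32955 and 27060 UMIs, Itih5 was seen in 91 and 109 of them, and Otol1 in 83 and 106. The gate thus held 60 of 177 and 73 of 236 control cells with these Rorb and Otx counts.

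Within the Rorb cells the markers were unevenly spread. Itih5 was detected in 53 of 60 cells of control 1 and 66 of 73 of control 2. Otol1 was detected in 49 and 66 cells, Fam107a in 30 and 45, and Gdf6 in 21 and 23. All 4 of these markers were found together in 13 and 12 cells, 3 of them in 17 and 39, and none of them in 1 and 0. All 14 otic epithelium markers on the list were detected in both control sums, which the gate fixes in part since it uses several of them. Pax2 and Eya1, otic genes that the gate did not use, stood at 148 and 166 and at 162 and 170.00 CPM (UMIs scaled to all UMIs of the cell group) in control 1 and control 2.

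Summed over cells, the markers set the Rorb cells apart from Otx-positive and double-low cells in both control libraries. Levels are CPM, the UMIs of a gene scaled to all UMIs of the same cell group, and as 3′ tags they do not depend on gene length. Gdf6 stood at 17.1 and 15.01 CPM in Rorb cells of control 1 and control 2, at 0.821 and 0.522 in Otx-positive cells and at 0.624 and 0.981 in double-low cells. Itih5 stood at 181 and 171 CPM, against 36.5 and 26.6 and 16.3 and 17.4. Of these 3 groups, Rorb cells had the highest level of both genes in each library. Fam107a stood at 22.1 and 35.6 CPM against 11.3 and 14.5 in Otx-positive and 4.10 and 6.56 in double-low cells. Otol1 was less selective, at 102 and 159 CPM against 56.2 and 62.3 in double-low and 8.73 and 10.1 in Otx-positive cells.

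Oc90, the main matrix protein of the otoconia and a gate gene, went the other way. It stood at 87.98 and 68.4 CPM in Rorb cells against 392 and 531 in double-low and 646 and 1046 in Otx-positive cells. Even this level rested on few cells, since 1 cell held 33.3% and 35.2% of all Oc90 UMIs of the Rorb cells in control 1 and control 2. Hmx2 stood at 46.1 and 46.1 CPM against 122 and 119 in double-low cells, and Lmx1a at 60.9 and 77.9 against 82.4 and 94.6. The Rorb cells thus had lower levels of most genes that placed them in the gate.

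The threshold cut through a gradient. Cells with exactly 1 Rorb UMI, just outside, numbered 60 and 49, and those with exactly 2, just inside, numbered 16 and 21. Itih5 stood at 84.3 and 78.95 CPM just outside and at 95.8 and 88.9 just inside. Cells with 6 or more Rorb UMIs, 23 and 28 of them, had Itih5 at 203 and 212 CPM. Oc90 ran down the same steps, at 258 and 216 CPM with 1 Rorb UMI, 200.04 and 129 with 2, and 12.6 and 13.3 with 6 or more. Gdf6 stood at 5.36 and 7.73 CPM just outside and at 11.8 and 11.1 just inside. On the Otx side, 7 and 8 cells had exactly 1 Otx UMI and were kept, 8 and 8 had 2 and were left out, and 31 and 31 had 3 or more.

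Marker lists of other cell types ranged from 0 to levels shared with the rest of the gate. Erythroid markers were at 0 in both sums. Leukocyte markers summed to 1.52 and 2.09 CPM, endothelial markers to 2.67 and 1.05, and pharyngeal endoderm markers to 0.381 and 0. Placodal neuron markers summed to 100.5 and 228 CPM, with Ntrk3 at 0 in control 1, against 96.3 and 132 in double-low cells. Neural crest or glia markers, which include the otic gene Sox10, summed to 192 and 237 CPM with Foxd3 at 0, against 247 and 258 in double-low cells. Epibranchial neuron markers summed to 12.6 and 14.3 CPM against 5.20 and 6.89, and neural tube markers to 6.86 and 18.5 CPM against 4.77 and 14.96. These 2 lists were higher in the Rorb sum of each library than in its double-low sum, as was the placodal neuron list. Of the placodal neuron UMIs, its member Isl1 held 140 of 264 and 250 of 654 in Rorb cells and 1134 of 4319 and 956 of 4716 in double-low cells. Without Isl1 the placodal neuron list was lower than in double-low cells in control 1 and higher in control 2. Of the surface ectoderm list, 3 of 9 members summed to 71.2 and 72.97 CPM against 147 and 151 for the list in double-low cells, while Krt5, Krt14, Krt15, Grhl3 and Tfap2c were at 0, as was Trp63, which the gate requires. Mesenchyme markers summed to 18.7 and 65.6 CPM against 16.5 and 19.7 in double-low cells, a higher sum in each library that rested on Lum. Of the mesenchyme UMIs, Lum held 45 of 49 and 179 of 188 in Rorb cells and 420 of 741 and 249 of 702 in double-low cells. The other members together were lower in Rorb cells in both libraries, and Col1a1, Col1a2, Col3a1 and Meox1 were at 0. The part of these transcripts in the results below was not tested. The Rorb cells had median UMIs of 37937 and 33456, above the 32281.5 and 30555 of double-low cells, and median mitochondrial shares of 2.13% and 2.91%. A doublet filter on the highest scores would remove 1 and 4 of them.

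The first comparison set the Rorb cells against the Otx-positive cells of the same control libraries. UMIs were summed per library and group, and the paired sums were tested with edgeR across all genes (Benjamini-Hochberg adjusted p under 0.05 is a call). Most genes of the ventral otic and prosensory lists were higher in Rorb cells, and Gsc, Wnt4 and Rspo2 were lower. Of 11690 genes tested, 600 were called higher (5.13%) and 676 lower (5.78%), 10.9% in all. DESeq2 called 164 and 141, and the counts were 126 and 143 with control 1 left out and 102 and 112 with control 2 left out. In these fits the estimated spread between 2 libraries is close to counting noise (common dispersion 0.00275), so the adjusted p-values are very small and are read here beside these alternatives. With a control library left out, no spread between control libraries remained. Those fits had no block and took their spread from the Otx-positive sums of the cKO libraries.

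The largest difference upward with an even level in both libraries was in Brip1, a helicase of DNA repair, and Irx5, a homeobox transcription factor. Brip1 stood at 167 and 171 CPM against 24.2 and 14.7 (log2 difference 3.12, SE 0.11, adjusted p = 4.28e-181). Irx5 stood at 231 and 237 CPM against 31.2 and 33.2 (log2 difference 2.85, SE 0.10, adjusted p = 2.97e-180). In both genes the libraries of one group lay far from those of the other. Crnde, a long noncoding RNA whose gene starts 1504 bases from Irx5 on the opposite strand of chromosome 8, stood at 27.8 and 32.8 CPM against 5.34 and 3.76 (log2 difference 2.69, SE 0.21, adjusted p = 5.11e-34). Hs3st6, a heparan sulfate sulfotransferase, stood at 85.7 and 110.3 CPM against 14.8 and 14.9, and S100a1, a calcium-binding protein, at 78.1 and 65.3 CPM against 12.7 and 10.1. The log2 differences were 2.69 and 2.63.

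Other genes at the top of the list varied more between the libraries. S100a13, which lies 42 bases from S100a1 on chromosome 3 on the opposite strand, stood at 92.5 and 35.6 CPM against 4.00 and 2.92 (log2 difference 4.12, SE 0.18, adjusted p = 1.5e-112), with a log2 difference of 3.44 when control 1 was left out. The small proteoglycan genes Lum and Dcn, neighbours on chromosome 10, stood at 17.1 and 62.5 CPM against 0.924 and 1.36 and at 18.7 and 30.7 CPM against 1.13 and 0.939, with log2 differences of 4.88 (3.89 with control 2 left out) and 4.35. Both are also expressed in mesenchyme, and the summed mesenchyme list stood at 18.7 and 65.6 CPM in Rorb cells, nearly all of it Lum. The collagen genes of that list were at 0. Lor, a protein of cornified epithelium, stood at 40.4 and 27.2 CPM against 6.88 and 3.03, and Sp5, a direct WNT target, at 24.4 and 16.4 CPM against 1.75 and 1.77. All 10 of these genes were higher in both libraries and stayed called by DESeq2 and with either library left out.

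Downward, several genes were nearly silent in Rorb cells. Gsc, a homeobox repressor, was read 2 times in all Rorb cells, 0 and 0.698 CPM against 39.2 and 49.8, and was lower by 122-fold (95% exact counting interval 33.7 to 1009). Vmo1, a secreted protein, was read 1 time, 0.381 and 0 CPM against 19.4 and 27.4, lower by 128-fold (95% exact counting interval 22.9 to 5083). These genes separated the groups in both libraries. The WNT ligand gene Wnt4 stood at 1.90 and 1.40 CPM against 45.5 and 67.3 (log2 difference -5.00, SE 0.25, adjusted p = 2.18e-84), and its log2 difference was -4.36 with control 2 left out. Rspo2, an agonist of WNT receptors, stood at 1.14 and 0.698 CPM against 21.7 and 24.9 (log2 difference -4.47, SE 0.35, adjusted p = 6e-35). Ttr, a thyroid hormone carrier, was at 0.381 and 0.349 CPM against 17.4 and 357, and its Otx-positive level differed so much between the libraries that the log2 difference was -9.20 with control 1 left out and -4.73 with control 2 left out. Tent5a, Epha3, Scube1 and Zfp385b were also among the leading genes, with log2 differences from -3.99 to -3.62. Leaving out control 1 or control 2 moved Epha3 to -2.99 or -6.14, Scube1 to -3.02 or -4.99 and Zfp385b to -4.62 or -2.91. All 9 of these genes stayed called by DESeq2 and with either library left out.

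**Figure D1:**
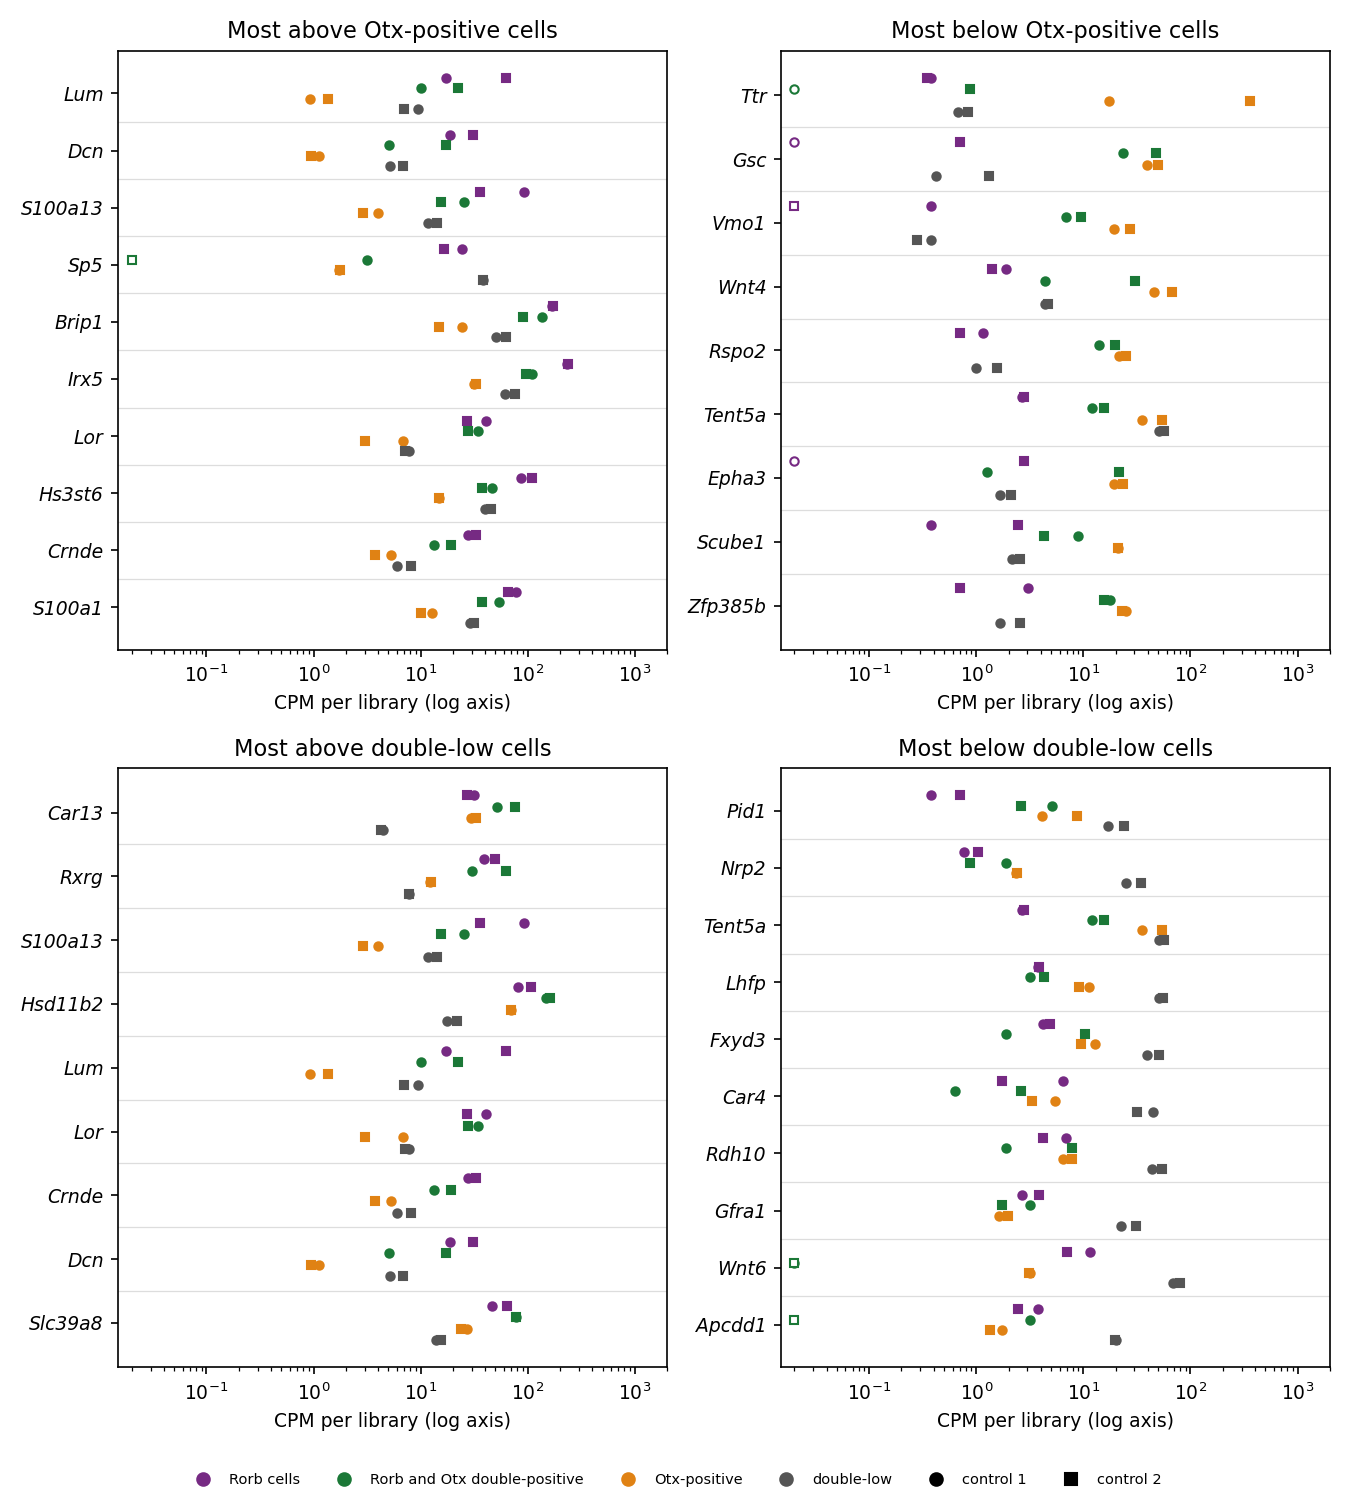
Level (CPM, log axis) in the 4 otic-gate groups of each control library for genes among the 10 most above and the 10 most below in the comparisons with Otx-positive cells (top) and double-low cells (bottom). Circles are control 1, squares control 2 and open symbols at the left edge 0 UMIs. Irx5 lies at 231 and 237 CPM in Rorb cells and at 31.2 and 33.2 in Otx-positive cells, and Ttr lies at 17.4 and 357 CPM in the Otx-positive cells.

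Of the ventral otic list, 9 of 12 tested members were higher than in Otx-positive cells and 2 lower, with a median log2 difference of 1.13 against 0.00 over all genes. Of these 11 calls, 10 held under DESeq2, 10 with control 1 left out and 8 with control 2 left out. Gata3, a zinc-finger factor of the early otic field, stood at 162 and 202 CPM against 36.6 and 32.8 (log2 difference 2.38, SE 0.10, adjusted p = 5.41e-125). Pax2 stood at 148 and 166 CPM against 58.1 and 59.6 (log2 difference 1.40, SE 0.09, adjusted p = 1.49e-47). Both were higher in both libraries, whereas Six2, a homeobox gene on the same list, stood at 11.1 and 15.7 CPM against 93.4 and 120.4 (log2 difference -2.998, SE 0.14, adjusted p = 4.36e-91).

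Of the prosensory list, 13 of 17 tested were higher and 0 lower, with a median of 1.14. Of the 13 calls, 10 held under DESeq2, 9 with control 1 left out and 9 with control 2 left out. Isl1, a LIM homeobox factor of neural and sensory precursors, stood at 53.3 and 87.3 CPM against 13.2 and 10.2 (log2 difference 2.54, SE 0.14, adjusted p = 5.41e-72). Sox2, which sensory and neurogenic progenitors share, stood at 153 and 148 CPM against 56.98 and 45.6 (log2 difference 1.55, SE 0.10, adjusted p = 1.02e-55), and the Notch ligand Jag1 at 79.2 and 71.6 CPM against 33.7 and 34.1 (log2 difference 1.14, SE 0.11, adjusted p = 8.05e-22). The Notch modulator Lfng stood at 36.6 and 32.5 CPM against 8.01 and 6.05, a log2 difference of 2.27. Gata3, Eya1, Sox2 and Lfng are among the genes on both lists, so these counts are not independent. Isl1 is also a placodal neuron marker, and that list's summed levels were given above. Its part in the result was not tested.

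Canal genes leaned the other way, with 2 of 13 tested higher and 9 lower (median -0.65), although only 1 call, that of the hyaluronan synthase gene Has2 at 1.52 and 2.79 CPM against 12.2 and 11.6, stayed under DESeq2 and with either library left out. Singly, 4 held under DESeq2, 5 with control 1 left out and 1 with control 2 left out. The dorsal list was split, with 4 of 10 higher and 4 lower. Msx1, a homeobox target of BMP signals, stood at 31.99 and 41.5 CPM against 12.8 and 9.08 (log2 difference 1.73, SE 0.17, adjusted p = 1.94e-23), and Bmp4 at 40.4 and 56.9 CPM against 15.7 and 27.97 (log2 difference 1.14, SE 0.14, adjusted p = 4.36e-15).

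Of the BMP list, 12 of 31 tested were called higher and 3 lower. Of the 15 calls, 9 held under DESeq2, 8 with control 1 left out and 8 with control 2 left out. Id2, Id3 and Id4, inhibitors of DNA binding that BMP signals induce, stood at 474 and 494 CPM against 286 and 254, at 1007 and 977 CPM against 612 and 601 and at 40.4 and 58.3 CPM against 17.1 and 16.9. Their log2 differences were 0.83, 0.70 and 1.51. Of the hedgehog list 4 of 13 were higher and 2 lower, with the receptor and target gene Ptch1 at 71.6 and 81.3 CPM against 31.6 and 31.7 (log2 difference 1.26, SE 0.11, adjusted p = 3.24e-26). The WNT list had 10 higher and 6 lower of 29, among them Wnt7b at 33.9 and 46.8 CPM against 9.04 and 7.51 (log2 difference 2.25, SE 0.17, adjusted p = 4.64e-37). Of the retinoic acid list, 3 of 17 were higher and 3 lower. Rxrg stood at 38.9 and 49.6 CPM against 12.3 and 12.5 (log2 difference 1.81, SE 0.15, adjusted p = 1.86e-29), the synthetic enzyme gene Aldh1a3 at 42.7 and 32.5 CPM against 10.1 and 8.14 (log2 difference 2.02, SE 0.17, adjusted p = 1.43e-29), and Cyp26a1, which degrades retinoic acid, at 19.8 and 15.01 CPM against 46.6 and 39.97 (log2 difference -1.32, SE 0.15, adjusted p = 1.78e-15). FGF genes split 6 to 4 of 20, and 0 of those 10 calls held under DESeq2 and with either library left out. With cells thinned before gating, Cyp26a1 had a log2 difference of 0.29 (adjusted p = 0.894, with 3.94e-32 to 0.894 over all alternatives), in the opposite direction.

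The second comparison held the Otx side of the rule constant and set the Rorb cells against double-low cells, which also carried at most 1 Otx UMI. Ventral, prosensory and hedgehog target genes were higher in Rorb cells, and dorsal genes, several WNT genes and the retinoid synthesis genes Aldh1a1, Aldh1a2 and Rdh10 were lower. Several of the higher genes were not particular to Rorb cells. In double-positive cells Ptch1 stood at 93.5 and 123 CPM, Hey2 at 56.8 and 28.6 and Pax2 at 150 and 174. Others, such as Sox2 at 70.7 and 65.8 CPM and Jag1 at 49.9 and 53.6, were lower there than in Rorb cells. Several of the genes lower than in double-low cells were low in Otx-positive and double-positive cells too, as given below. Of 13635 genes tested, 689 were called higher (5.05%) and 879 lower (6.45%), 11.5% in all. DESeq2 called 178 and 217, and the counts were 109 and 176 with control 1 left out and 84 and 87 with control 2 left out. It shares the Rorb sums with the comparison above, so agreement of the 2 is no separate evidence. The same holds for the set of Rorb cells against all other otic-gate cells, where 584 of 13941 genes were called higher (4.19%) and 721 lower (5.17%), 9.36% in all.

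Enzymes and a transporter were among the leaders of the genes above double-low cells. Car13, a carbonic anhydrase, stood at 31.6 and 27.2 CPM against 4.46 and 4.23 (log2 difference 2.74, SE 0.20, adjusted p = 4.01e-40). Hsd11b2, which inactivates glucocorticoids, stood at 80.7 and 106 CPM against 17.6 and 21.8 (log2 difference 2.24, SE 0.10, adjusted p = 1.95e-103). Slc39a8, a zinc and manganese importer, stood at 46.9 and 64.6 CPM against 13.9 and 15.6 (log2 difference 1.91, SE 0.13, adjusted p = 3.39e-47). In these 3 genes both Rorb sums exceeded both double-low sums by several fold. Slc39a8 stood at 77.7 and 77.01 CPM in double-positive cells. The figure of leading genes places Car13 and Hsd11b2 at similar or higher levels in double-positive cells, Car13 at 51.8 and 76.1 CPM and Hsd11b2 at 149 and 161 CPM. Otx-positive cells held both genes at levels nearer to those of Rorb cells, Car13 at 29.8 and 32.97 CPM (log2 difference -0.11, SE 0.14, adjusted p = 0.775) and Hsd11b2 at 69.7 and 69.6 CPM (log2 difference 0.41, SE 0.10, adjusted p = 0.000698). DESeq2 did not call Hsd11b2 here (adjusted p = 0.598, with 9.4e-05 to 1 over all alternatives), nor was it called with either library left out. Rxrg stood at 38.9 and 49.6 CPM against 7.76 and 7.82 (log2 difference 2.49, SE 0.16, adjusted p = 3.29e-52). In double-positive cells it stood at 30.3 and 63.2 CPM. Irx5 and Brip1 were again higher, at 231 and 237 CPM against 60.96 and 76.8 and at 167 and 171 CPM against 50.7 and 63.2, with log2 differences of 1.77 and 1.57.

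Lor, Crnde and Dcn had log2 differences of 2.16, 2.11 and 2.02 from double-low cells. The calls of Lum and S100a13 hung on 1 library. Lum stood at 17.1 and 62.5 CPM against 9.37 and 6.98 (log2 difference 2.22, SE 0.17, adjusted p = 1.58e-38), and its call was lost with control 2 left out (adjusted p = 0.225, with 3.58e-44 to 0.511 over all alternatives). S100a13 stood at 92.5 and 35.6 CPM against 11.8 and 14.1 (log2 difference 2.26, SE 0.13, adjusted p = 5.69e-65), and its call was lost with control 1 left out (adjusted p = 0.151, with 2.38e-78 to 0.151 over all alternatives). DESeq2 called neither. Each of these genes was much higher in 1 of the Rorb sums than in the other.

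Among the genes below double-low cells were several of signalling and adhesion. Wnt6, a WNT ligand, stood at 11.4 and 6.98 CPM against 68.7 and 79.2 (log2 difference -3.02, SE 0.15, adjusted p = 4.04e-86). Rdh10, which makes retinaldehyde, stood at 6.86 and 4.19 CPM against 43.7 and 53.9 (log2 difference -3.15, SE 0.18, adjusted p = 1.53e-62). Gfra1, a receptor for GDNF, stood at 2.67 and 3.84 CPM against 22.7 and 30.8 (log2 difference -3.02, SE 0.24, adjusted p = 2.07e-33), and Apcdd1, a WNT inhibitor, at 3.81 and 2.44 CPM against 20.4 and 19.8, a log2 difference of -2.68. All were lower in both libraries, but not in Rorb cells alone. In Otx-positive cells Wnt6 stood at 3.18 and 3.13 CPM, Rdh10 at 6.47 and 7.83, Gfra1 at 1.64 and 1.98 and Apcdd1 at 1.75 and 1.36. In double-positive cells Wnt6 stood at 0 and 0 CPM, Rdh10 at 1.89 and 7.79, Gfra1 at 3.16 and 1.73 and Apcdd1 at 3.16 and 0. Pid1, an adaptor of insulin signalling, was read 3 times in Rorb cells, 0.381 and 0.698 CPM against 17.1 and 23.8, and was lower by 36.7-fold (95% exact counting interval 12.5 to 178). Lhfp, Tent5a, Fxyd3 and Car4 had log2 differences of -3.78, -4.29, -3.31 and -3.24. Nrp2, a semaphorin receptor, stood at 0.762 and 1.05 CPM against 25.1 and 34.6 (log2 difference -4.98, SE 0.32, adjusted p = 2.6e-53), and its call was lost with control 2 left out (adjusted p = 0.128, with 1.02e-59 to 0.128 over all alternatives).

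Genes of otic position divided by list. Of the ventral list, 9 of 12 tested were higher than in double-low cells and 0 lower, with a median of 1.00, against 0.00 over all genes. Of the 9 calls, 8 held under DESeq2, 7 with control 1 left out and 6 with control 2 left out. Gata3 stood at 162 and 202 CPM against 67.96 and 57.7 (log2 difference 1.54, SE 0.07, adjusted p = 5.77e-95), and Eya1, a transcriptional coactivator, at 162 and 170.00 CPM against 75.2 and 80.4 (log2 difference 1.09, SE 0.07, adjusted p = 1.04e-47). Both were higher in both libraries. Of the dorsal list, 8 of 11 were lower and 1 higher (median -1.41), and of these 9 calls 5 held under DESeq2, 5 with control 1 left out and 5 with control 2 left out. Dlx5, a homeobox gene of the dorsal wall that is required for the canals, stood at 38.1 and 23.04 CPM against 139 and 135 (log2 difference -2.18, SE 0.10, adjusted p = 5.38e-94), its neighbour Dlx6 at 11.4 and 8.03 CPM against 39 and 36 (log2 difference -1.95, SE 0.17, adjusted p = 8.68e-29), and Meis2 at 74.3 and 101 CPM against 179 and 191 (log2 difference -1.08, SE 0.08, adjusted p = 6.87e-40). Gbx2 stood at 17.5 and 12.2 CPM against 57.7 and 61.97 (log2 difference -2.02, SE 0.14, adjusted p = 5.16e-46). It was read in 13 cells of each library, and 1 cell held 28.3% and 48.6% of its UMIs. Its call was lost with control 2 left out (adjusted p = 0.186, with 5.84e-56 to 0.186 over all alternatives).

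**Figure D2:**
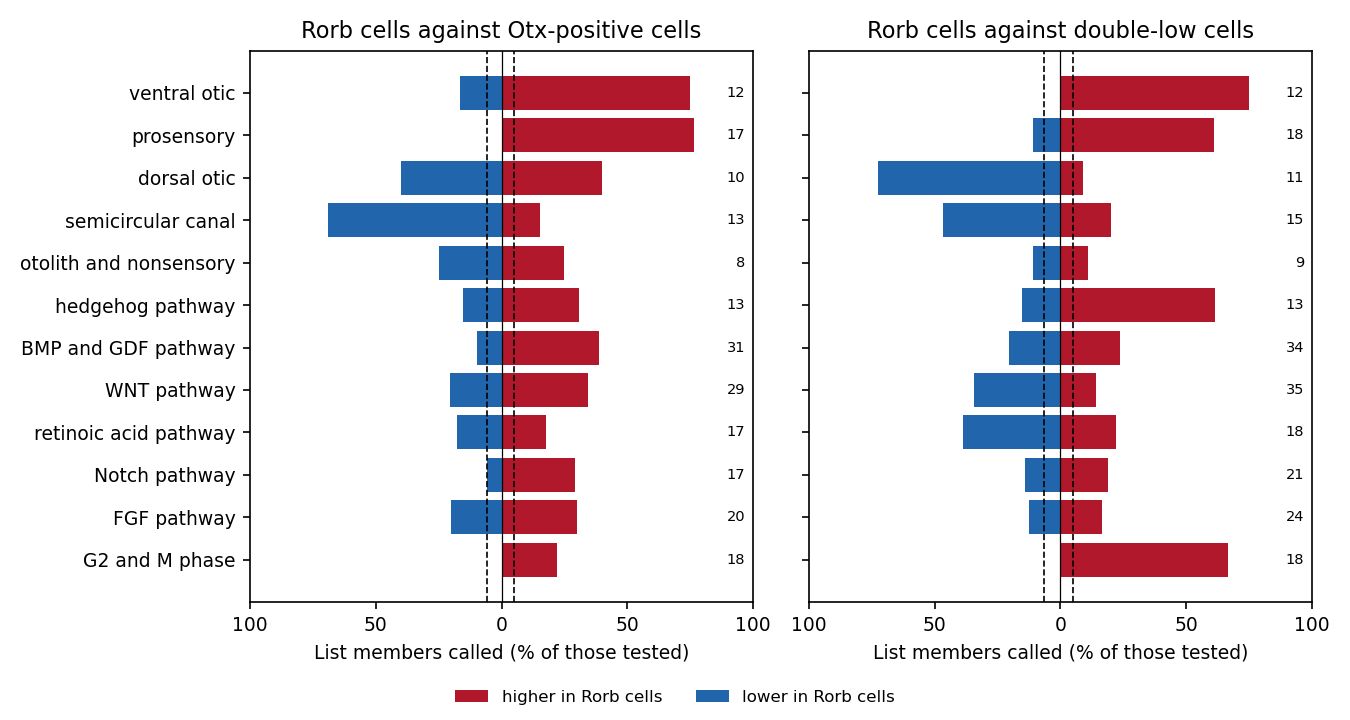
Share of each list's tested members (%) called higher (right) or lower (left) in Rorb cells than in Otx-positive cells and in double-low cells of the control libraries. Numbers at the right are members tested, and dashed lines mark the share over all genes, 5.13% and 5.78% on the left and 5.05% and 6.45% on the right. Ventral members were higher in 9 of 12 against both groups, while dorsal members were lower in 8 of 11 against double-low cells and split 4 to 4 of 10 against Otx-positive cells.

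Prosensory genes were higher in 11 of 18 tested and lower in 2, and of these 13 calls 11 held under DESeq2, 10 with control 1 left out and 8 with control 2 left out. Jag1 stood at 79.2 and 71.6 CPM against 38.2 and 38.9 (log2 difference 0.96, SE 0.10, adjusted p = 5.6e-22). Isl1 stood at 53.3 and 87.3 CPM against 25.3 and 26.8 (log2 difference 1.42, SE 0.10, adjusted p = 1.09e-39), and the Notch target gene Hey2 at 20.2 and 12.9 CPM against 5.57 and 3.14 (log2 difference 1.93, SE 0.23, adjusted p = 2.01e-14). Sox2 differed less, at 153 and 148 CPM against 119 and 95.6 (log2 difference 0.49, SE 0.07, adjusted p = 8.74e-10), and was not called with control 2 left out (adjusted p = 0.136, with 1.42e-12 to 0.239 over all alternatives). Canal genes were higher in 3 and lower in 7 of 15, a count to which Dlx5 belongs too. Of these 10 calls, 4 held under DESeq2, 2 with control 1 left out and 1 with control 2 left out.

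Hedgehog genes were higher in 8 of 13 tested and lower in 2, and of these 10 calls 5 held under DESeq2, 5 with control 1 left out and 4 with control 2 left out. The receptor gene Ptch1 and the transcription factor gene Gli1 are both induced by hedgehog signals. Ptch1 stood at 71.6 and 81.3 CPM against 24.8 and 27.2 (log2 difference 1.55, SE 0.10, adjusted p = 8.99e-50). Gli1 stood at 19.8 and 19.2 CPM against 4.24 and 3.08 (log2 difference 2.41, SE 0.23, adjusted p = 1.9e-23). The coreceptor Gas1, which hedgehog signals repress, was lower, at 97.9 and 118 CPM against 269 and 254 (log2 difference -1.27, SE 0.08, adjusted p = 4.55e-61).

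WNT genes were lower in 12 of 35 tested and higher in 5 (median -0.37), and of these 17 calls 10 held under DESeq2, 8 with control 1 left out and 5 with control 2 left out. Rspo3, a WNT agonist, stood at 19.8 and 39.5 CPM against 84.5 and 106 (log2 difference -1.69, SE 0.11, adjusted p = 2.28e-52). Sfrp1, a secreted WNT inhibitor, was higher, at 294 and 362 CPM against 91.9 and 108 (log2 difference 1.71, SE 0.06, adjusted p = 1.74e-151), as was the receptor gene Fzd7, at 69.7 and 76.5 CPM against 24.6 and 25.1 (log2 difference 1.55, SE 0.10, adjusted p = 9.12e-48). The general targets Axin2, Lef1 and Sp5 were called lower, at 22.5 and 13.6 CPM against 32.1 and 35.3, at 18.7 and 18.9 CPM against 41.03 and 38.2 and at 24.4 and 16.4 CPM against 37.9 and 38.4, and all 3 calls were lost with control 2 left out (adjusted p = 0.535, 0.0704 and 0.292). Over all alternatives the adjusted p ran from 2.33e-09 to 0.535 for Axin2, from 2.1e-13 to 0.0704 for Lef1 and from 1.11e-10 to 0.777 for Sp5. Axin2 and Lef1 were also not called with control 1 left out (adjusted p = 0.0761 and 0.052). Sp5 lay between the groups, above Otx-positive and below double-low cells. In double-positive cells Sfrp1 stood at 428 and 405 CPM and Fzd7 at 75.1 and 64.9.

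The retinoic acid list was lower in 7 of 18 tested and higher in 4, and of these 11 calls 10 held under DESeq2, 8 with control 1 left out and 7 with control 2 left out. The synthetic enzymes Aldh1a2 and Aldh1a1 were almost absent from Rorb cells. Aldh1a2 was read 2 times, 0 and 0.698 CPM against 13.9 and 18.4, lower by 43.6-fold (95% exact counting interval 12.1 to 361). Aldh1a1 stood at 0.381 and 1.40 CPM against 14.3 and 14.3 (log2 difference -3.91, SE 0.39, adjusted p = 1.72e-21). The other groups held little of these 2 genes as well. Aldh1a2 stood at 3.49 and 3.65 CPM in Otx-positive and 4.42 and 0 in double-positive cells. Aldh1a1 stood at 1.85 and 3.86 CPM in Otx-positive and 1.26 and 0.865 in double-positive cells. The third of these enzymes, Aldh1a3, was not called, at 42.7 and 32.5 CPM against 29.2 and 40.3 (log2 difference 0.11, SE 0.12, adjusted p = 0.681), and its libraries differed in direction. The retinoic acid carrier Crabp1 was lower too, at 36.2 and 53.4 CPM against 124 and 129 (log2 difference -1.49, SE 0.09, adjusted p = 1.2e-52), whereas Crabp2 was higher, at 716 and 663 CPM against 457 and 415 (log2 difference 0.66, SE 0.06, adjusted p = 9.6e-26). The members lower in Rorb than in double-low cells thus included 3 of the genes for enzymes of ligand synthesis, and those higher included the receptor gene Rxrg.

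BMP genes were divided, 8 of 34 higher and 7 lower. Id1 stood at 572 and 471 CPM against 384 and 302 (log2 difference 0.60, SE 0.06, adjusted p = 3.12e-21), and the pseudoreceptor gene Bambi at 25.1 and 34.2 CPM against 74.2 and 76.3 (log2 difference -1.34, SE 0.11, adjusted p = 2.54e-31). Of these 15 calls, 9 held under DESeq2, 8 with control 1 left out and 3 with control 2 left out. Notch genes split 4 to 3 of 21 and FGF genes 4 to 3 of 24. The clock and ROR list, which holds genes that ROR receptors regulate, had 0 of 14 higher and 2 lower, Cry1 at 17.1 and 15.7 CPM against 25.98 and 28.7 and Rora at 0.381 and 0.698 CPM against 2.36 and 2.72. Neither was called by DESeq2 or with either library left out.

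The T-box genes floxed in the cKO embryos were both detected in the Rorb cells of control embryos. Tbx2 stood at 98.7 and 121 CPM in Rorb, 96.9 and 97.2 in Otx-positive and 88.8 and 96.8 in double-low cells. It was called higher than in double-low cells (log2 difference 0.24, SE 0.08, adjusted p = 0.0257) but not by DESeq2 (adjusted p = 0.764, with 0.0141 to 0.926 over all alternatives), with control 1 left out (adjusted p = 0.268) or with control 2 left out (adjusted p = 0.502). Tbx3 stood at 41.1 and 44.3 CPM against 70.6 and 63.9 and 75.01 and 71.4, lower than in Otx-positive and double-low cells in both libraries. Its log2 differences were -0.66 and -0.78, and both calls were lost with either library left out (adjusted p 0.16 to 0.552, with 2.44e-20 to 0.833 over all alternatives). Tbx1, a T-box gene of the otic vesicle and pharyngeal arches, stood at 126 and 104 CPM, between 70.5 and 74.97 in double-low and 187 and 194 in Otx-positive cells.

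Cell cycle genes differed in small steps. Of the G2 and M phase list, 12 of 18 tested were called higher than in double-low cells and 0 lower, with a median log2 difference of 0.28. Top2a, which untangles chromosomes before division, stood at 597 and 617 CPM against 481 and 456 (log2 difference 0.37, SE 0.06, adjusted p = 3.11e-08), and the proliferation marker Mki67 at 222 and 273 CPM against 200.5 and 186 (log2 difference 0.36, SE 0.07, adjusted p = 1.29e-06). These calls did not hold, since 6 of the 12 were called by DESeq2, 0 with control 1 left out and 0 with control 2 left out. Rorb cells were also the deeper cells. With cells thinned to 10000 UMIs before gating, which left 10 and 11 Rorb cells, Top2a had a log2 difference of -0.74 (adjusted p = 0.00169, with 1.15e-09 to 0.18 over all alternatives), in the opposite direction.

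The third comparison set the Rorb cells against the 78 double-positive cells, which met the Rorb threshold but held at least 2 Otx UMIs. Its fits with a library left out took their spread from double-low sums of the cKO libraries, another cell group. Fewer genes were called between these smaller groups, 116 of 9875 higher (1.17%) and 132 lower (1.34%), 2.51% in all, and DESeq2 called 19 and 30. With control 1 left out 9 and 19 were called, and with control 2 left out 0 and 3, so only the largest differences are named. Capn6, a calpain-family protein without protease activity, stood at 12.6 and 22.7 CPM against 109 and 189.5 (log2 difference -3.03, SE 0.16, adjusted p = 1.46e-24). Ehbp1, an endocytic adaptor, stood at 8.38 and 11.5 CPM against 87.1 and 99.5 (log2 difference -3.15, SE 0.20, adjusted p = 4.35e-20). Both were lower in Rorb cells in both libraries and stayed called by DESeq2 and with either library left out. Ehbp1 (chr11:22005828-22342292) lies next to Otx1 (chr11:21994764-22002897) on the same strand, and the rule splits these groups by Otx counts. Ehbp1 stood at 126 and 117 CPM in Otx-positive and at 9.77 and 10.03 in double-low cells. The part of this position in the Ehbp1 call was not tested.

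The other genes named by size in this comparison lost their call with at least 1 library left out. Gsc stood at 0 and 0.698 CPM against 23.4 and 47.6 and was not called with control 2 left out (adjusted p = 0.147, with 5.86e-36 to 0.587 over all alternatives). Msx1 stood at 31.99 and 41.5 CPM against 4.42 and 4.33 (log2 difference 2.94, SE 0.33, adjusted p = 2.6e-10) and was not called with either library left out, at adjusted p 0.103 and 0.256 (1.16e-16 to 0.256 over all alternatives). Of the dorsal list, 4 of 9 tested were higher and 0 lower, namely Msx1, Gbx2, Dlx5 and Msx2, and 0 of these stayed called under DESeq2 and with either library left out. Irx5 ran in steps, at 231 and 237 CPM in Rorb, 109 and 96.9 in double-positive, 60.96 and 76.8 in double-low and 31.2 and 33.2 in Otx-positive cells.

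Because the cKO libraries held 1 Rorb cell each, the genotypes were compared over all otic-gate cells and over double-low cells alone, to see whether the genes that were higher in control Rorb cells were present in other cells of the cKO vesicle. Of 15132 genes tested in all otic-gate cells, 2908 were called higher in cKO (19.2%) and 2527 lower (16.7%), 35.9% in all. In double-low cells 2747 of 14776 were higher (18.6%) and 2421 lower (16.4%), 35% in all. Control Rorb cells are part of the first set of control sums and of none of the second. The otic genes of the gate were lower in cKO, as given above, and how this changed which cells entered the sums was not tested. In such sums, fewer cells carrying a gene and less RNA per cell cannot be told apart. TMM scaling, which sets the median gene near 0, shifts the cKO sums by -0.16 (log2) against plain CPM in both sets, so log2 values here lie above those of the printed CPM. The control libraries also had higher mitochondrial shares (medians of 2.28% and 2.87% against 1.20% and 1.28% in the gate), whose part in these results was not tested.

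Of the markers, Gdf6 was nearly lost and Itih5 was not. Gdf6 stood at 1.84 and 2.27 CPM in the control libraries and 0.0312 and 0 CPM in the cKO libraries in all otic-gate cells, which is 108, 112, 1 and 0 UMIs, and was higher in control by 169-fold (95% exact counting interval 29.96 to 6693). It was seen in 57, 66, 1 and 0 cells, of which 32 and 35 control cells had 2 or more Rorb UMIs. Otol1 stood at 50.6 and 58.2 CPM in the control libraries and 10.03 and 16.7 CPM in the cKO libraries (log2 difference -1.84, SE 0.18, adjusted p = 0.000384), and Fam107a at 6.67 and 10.7 CPM in the control libraries and 1.65 and 1.83 CPM in the cKO libraries (log2 difference -2.12, SE 0.23, adjusted p = 0.000521). For these 3 markers no cKO library overlapped a control library. Itih5 stood at 32.5 and 32.9 CPM in the control libraries and 27.98 and 28.8 CPM in the cKO libraries (log2 difference -0.04, SE 0.07, adjusted p = 0.672).

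In double-low cells Otol1 stood at 56.2 and 62.3 CPM in the control libraries and 10.2 and 16.6 CPM in the cKO libraries (log2 difference -1.96, SE 0.17, adjusted p = 0.00025), and Fam107a at 4.10 and 6.56 CPM in the control libraries and 1.67 and 1.76 CPM in the cKO libraries (log2 difference -1.45, SE 0.23, adjusted p = 0.00286). The Fam107a call was lost with cells thinned before gating (adjusted p = 0.0721, with 7e-13 to 0.0721 over all alternatives). Itih5 stood at 16.3 and 17.4 CPM in the control libraries and 28.3 and 29.1 CPM in the cKO libraries in these cells. Double-low cells held 731 of 1910 and 620 of 1621 Itih5 UMIs of the control gate but 879 of 898 and 1439 of 1460 of the cKO gate, so the rule itself took most Itih5 out of the control sums, and the difference in double-low cells is given without a test. Cells with at least 3 of the 4 markers Gdf6, Otol1, Fam107a and Itih5, whatever their Rorb count, numbered 113, 151, 7 and 18.

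**Figure D3:**
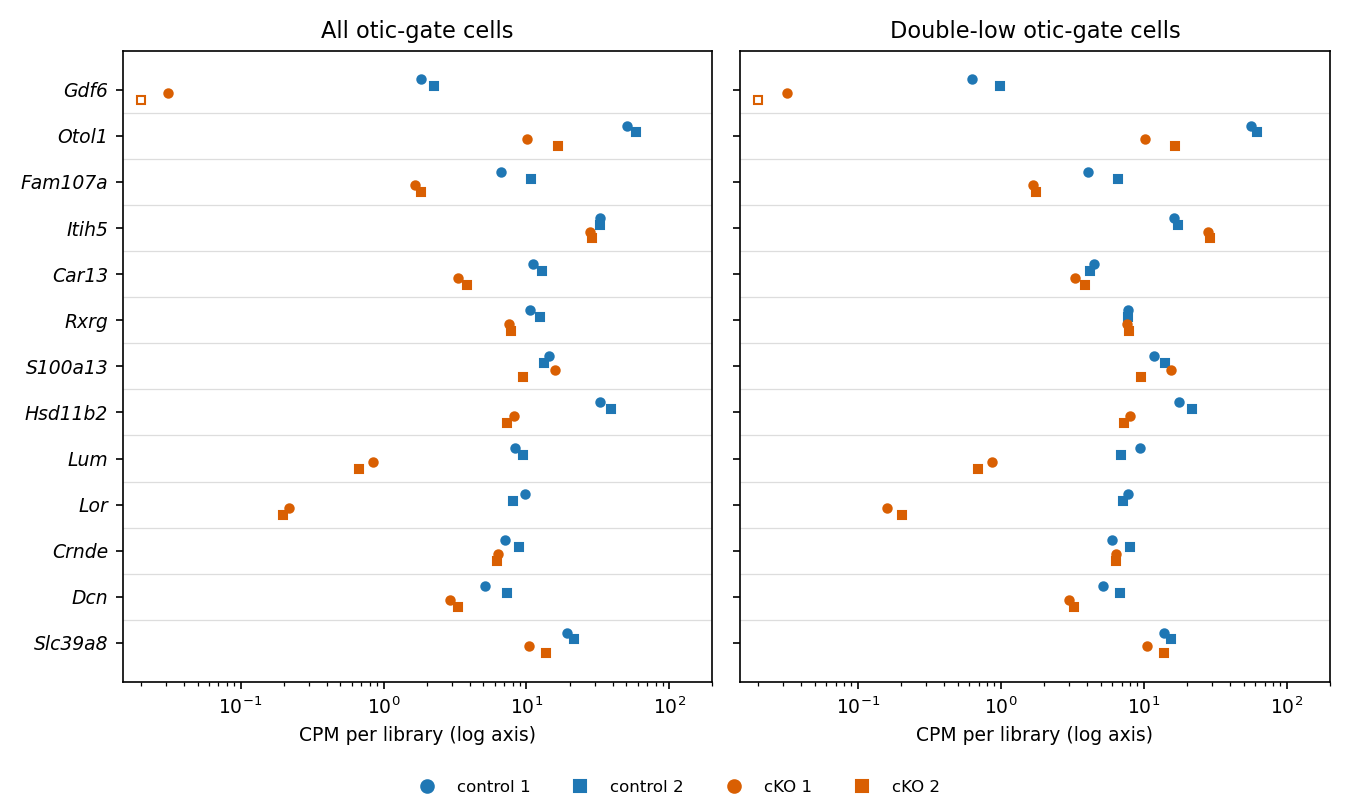
Level (CPM, log axis) per library of the 4 markers other than Rorb and of genes among the 10 most above double-low cells in control, in all otic-gate cells and in double-low cells. Blue is control and orange cKO, circles are replicate 1 and squares replicate 2, and the open symbol at the left edge is 0 UMIs. Gdf6, Lum and Lor are lower in both cKO libraries in both panels, while Itih5 is near the control level in all otic-gate cells and above it in double-low cells, from which the rule removed most control Itih5 UMIs.

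The genes that led Rorb cells over double-low cells in control were not lost as a set. Lum stood at 9.37 and 6.98 CPM in the control libraries and 0.869 and 0.687 CPM in the cKO libraries in double-low cells (log2 difference -3.23, SE 0.23, adjusted p = 8.34e-05), and Lor at 7.80 and 7.14 CPM in the control libraries and 0.161 and 0.202 CPM in the cKO libraries (log2 difference -5.01, SE 0.22, adjusted p = 1.07e-05). Hsd11b2 stood at 17.6 and 21.8 CPM in the control libraries and 8.01 and 7.22 CPM in the cKO libraries (log2 difference -1.22, SE 0.12, adjusted p = 0.000368). These fell in cells that were not Rorb cells in either genotype. Dcn fell as well, from 5.17 and 6.78 CPM to 2.99 and 3.27 (log2 difference -0.76, SE 0.16, adjusted p = 0.00907), but was not called with control 2 left out (adjusted p = 0.0699, with 2.82e-05 to 0.211 over all alternatives). Car13 fell in all otic-gate cells, at 11.1 and 12.8 CPM in the control libraries and 3.33 and 3.86 CPM in the cKO libraries (log2 difference -1.56, SE 0.12, adjusted p = 0.000127), and was not called in double-low cells (log2 difference -0.11, SE 0.15, adjusted p = 0.584). Of the Car13 UMIs of the control gate, double-low cells held 200 of 655 and 151 of 633. In the cKO gate they held 102 of 107 and 192 of 196. The rule itself thus took most Car13 out of the control sums, which limits the comparison in double-low cells. Whether the fall of Car13 differs between the 2 sets was not tested, since they share cells.

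Others were not called or were higher. Irx5 stood at 64.9 and 78.1 CPM in the control libraries and 57.4 and 71.6 CPM in the cKO libraries (log2 difference 0.02, SE 0.11, adjusted p = 0.909). Crnde and S100a13 were not called in all otic-gate cells, with log2 differences of -0.18 (SE 0.13) and 0.01 (SE 0.21). Brip1 rose, from 53.9 and 60.7 CPM in control to 96.5 and 102 in cKO (log2 difference 0.95, SE 0.07, adjusted p = 0.000111). Rxrg was called lower in all otic-gate cells (log2 difference -0.41, SE 0.11, adjusted p = 0.0194), but not with control 2 left out (adjusted p = 0.129, with 0.00334 to 0.129 over all alternatives), and not in double-low cells (log2 difference 0.15, SE 0.10, adjusted p = 0.27). Of the Rxrg UMIs of the control gate, double-low cells held 348 of 618 and 279 of 614. In the cKO gate they held 238 of 244 and 390 of 397, so the rule limits that comparison as well. In all otic-gate cells Crnde stood at 7.02 and 8.93 CPM in the control libraries and 6.36 and 6.22 CPM in the cKO libraries.

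Outside the Rorb group, several hedgehog genes were lower in cKO, and ventral genes were called in each direction at shares near those over all genes. In double-low cells 7 of 13 tested hedgehog genes were called lower and 0 higher (median -0.38 against -0.02 over all genes), and of these 7 calls 5 held under DESeq2, 3 with control 1 left out and 5 with control 2 left out. They include Gas1 and Cdon, which were also lower in Rorb cells. Of the ventral list, 3 of 13 tested were called higher and 3 lower (median 0.04). Over all genes tested in these cells 18.6% were called higher and 16.4% lower. Lfng was among the higher, at 19.8 and 17.9 CPM in the control libraries and 43.9 and 53.3 CPM in the cKO libraries (log2 difference 1.52, SE 0.11, adjusted p = 8.47e-05). Eya1 and Pax2 were not called, with log2 differences of 0.07 (SE 0.08) and 0.04 (SE 0.10). Gata3 stood at 67.96 and 57.7 CPM in the control libraries and 27.9 and 27.5 CPM in the cKO libraries (log2 difference -1.03, SE 0.10, adjusted p = 0.000383), and Ptch1 at 24.8 and 27.2 CPM in the control libraries and 13.9 and 15.97 CPM in the cKO libraries (log2 difference -0.64, SE 0.09, adjusted p = 0.00191). Gli1 stood at 4.24 and 3.08 CPM in the control libraries and 1.42 and 1.68 CPM in the cKO libraries (log2 difference -1.07, SE 0.23, adjusted p = 0.00885), and its call was lost with control 1 left out (adjusted p = 0.067, with 3.14e-06 to 0.067 over all alternatives). In Gata3, Ptch1 and Gli1 both cKO libraries lay below both control libraries. Tbx1 stood at 70.5 and 74.97 CPM in the control libraries and 40.99 and 28.7 CPM in the cKO libraries in double-low cells (log2 difference -0.91, SE 0.15, adjusted p = 0.0029).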

How the data were processed

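The deposited matrices give raw UMI counts for 32285 genes in 19567 barcodes that the authors' pipeline had called as cells. The build mm10, FastQC 0.11.4, Cell Ranger 3.1.0 and Seurat 4.1.0 are named per the submitters' processing notes, but the counts come from Cell Ranger 6.0.1 per the file headers. The counts were used without normalization, annotation or doublet removal. Scrublet in scanpy 1.11.5 (Python 3.11.15) called 3, 2, 5 and 0 doublets, too few to rely on, so removing the highest scores (0.8% per 1000 barcodes) was run as an alternative. DESeq2 1.42.0 was another. UMI counts were summed per library and group with at least 20 cells (in the thinned gate, 10 and 11 Rorb cells and 4 and 6 double-positive cells) and tested with the quasi-likelihood test of edgeR 4.0.16 in R 4.3.3 (genes filtered by filterByExpr, TMM scaling, prior count 1), two-sided, adjusted by Benjamini-Hochberg at 0.05, with the library as a block within control. The script was tested on simulated counts with a larger spread than the paired fits estimated and without differences between libraries. That test therefore does not show how calls behave near counting noise.

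Sums within cKO Rorb cells, the genotype difference within Rorb cells and its interaction could not be fitted, because each cKO library held 1 such cell. The planned model over both genotypes was therefore fitted on the control sums. The genotype comparisons over other otic-gate cells and the comparison with double-positive cells were added after seeing the data. Members, lists and tests were chosen with earlier results of these data known. Genes named by size had at least 20 CPM in the higher group, moved one way in both libraries and were the 10 largest per direction, without predicted, mitochondrial or ribosomal genes and without rule genes or markers. Others were list members, up to 4 per list, or genes whose role was of interest. Some genes that the rule names are not reported here. Gene positions are from GENCODE (mm10).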

Additional observations from a re-analysis of the deposited data

How the results depend on the processing

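Of 2791 alternative values for 197 named results, 2537 kept their direction and side of the threshold, 209 lost the call, 7 gained one and 38 changed direction. Counts of called genes moved with the method, with 1 library left out and with thinning. In the paired comparisons, the fits with 1 library left out took their spread from cKO sums, without a block. For higher and lower in Rorb cells, DESeq2 called 164 and 181 against all other otic-gate cells, 164 and 141 against Otx-positive, 178 and 217 against double-low and 19 and 30 against double-positive cells. With 1 library left out the ranges were 50 to 112 and 41 to 164, 102 to 126 and 112 to 143, 84 to 109 and 87 to 176, and 0 to 9 and 3 to 19, in fits that assume the lone pair varies as estimated. With cells thinned before gating they were 75 and 93, 53 and 32, 82 and 123, and 0 and 4, with fewer cells and fewer genes tested. Against double-positive cells, 250 and 268 were called with at least 1 Rorb UMI, 83 lower with at least 3, and 42 and 69 with Oc90 left out of the gate. For cKO against control in all otic-gate cells the thinned gate gave 1701 and 1527 and DESeq2 1594 lower, and leaving out 1 library gave 1622 to 2466 higher and 1210 to 2255 lower. In double-low cells these were 1650 and 1503, 1475 lower, and 1591 to 2433 higher and 1207 to 2205 lower. The share difference was -3.03 points with at least 3 Rorb UMIs, -6.62 with at least 1 and -0.971 on thinned cells.

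Without the replicate block, the paired comparisons called 253 and 360 against all other otic-gate cells, 356 and 404 against Otx-positive, 290 and 423 against double-low and 37 and 67 against double-positive cells. The library numbers of the 2 genotypes did not pair (correlation of deviations 0.00516, a single value because 2 libraries per genotype make both pairs give the same). A replicate block there gave 5755 called genes in all against 5435 in all otic-gate cells and 5502 against 5168 in double-low cells.

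The values that changed direction are log2 differences, and their causes were not tested. With 1 library left out, Car13 ran from -0.32 to 0.12 against Otx-positive cells. With 1 library left out, Aldh1a3 ran from -0.36 to 0.57 against double-low cells. With 1 library left out, Irx5 ran from -0.17 to 0.15, S100a13 ran from -0.41 to 0.34 for cKO against control in all otic-gate cells. With 1 library left out, Crnde ran from -0.15 to 0.24, Eya1 ran from -0.0279 to 0.13, Irx5 ran from -0.0977 to 0.23, Pax2 ran from -0.10 to 0.20, S100a13 ran from -0.29 to 0.42, Slc39a8 ran from -0.34 to 0.0474 for cKO against control in double-low cells. With cells thinned before gating these were Dlx5 0.0271, Cyp26a1 0.29, Tbx1 0.0953, Car13 0.48 against Otx-positive cells, and Cenpe -0.42, Top2a -0.74, Mki67 -0.45 against double-low cells, and Tbx3 0.49 against double-positive cells, and S100a13 -0.33, Irx5 -0.0413 for cKO against control in all otic-gate cells, and Rxrg -0.29, S100a13 -0.46, Crnde -0.28, Irx5 -0.0812, Eya1 -0.14, Pax2 -0.35 for cKO against control in double-low cells. With Oc90 left out of the gate these were Car13 0.0613 against Otx-positive cells and Aldh1a3 -0.11 against double-low cells. With at least 1 Rorb UMI these were Aldh1a3 -0.11 against double-low cells and Tbx3 0.0735 against double-positive cells. With the rule tightened to 0 UMIs of Otx1 and Otx2 these were Aldh1a3 -0.0375 against double-low cells. With doublets removed these were S100a13 -0.0359 for cKO against control in all otic-gate cells. With a replicate block these were S100a13 -0.00961 for cKO against control in all otic-gate cells. With at least 3 Rorb UMIs these were Crnde -0.0517, Pax2 -0.00107 for cKO against control in double-low cells. At the depth used, 60 and 73 Rorb cells per library limit genes under a few CPM.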
